A study of Homo sapiens with 12 samples.

Results

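TRAF proteins are adaptors that bind the cytoplasmic tails of TNF superfamily receptors, or the complexes that form under interleukin-1 and Toll-like receptors. Most of them carry a RING domain, which lets them work as ubiquitin ligases, and the ubiquitin chains they build recruit the kinases that release NF-kB and start JNK and p38 signalling. TANK binds TRAF proteins and the kinases TBK1 and IKBKE, which stand at the head of the interferon response. In monocytes and in the airway epithelium these adaptors link danger signals and cytokines to inflammatory transcription.

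The genes described are TRAF1, TRAF2, TRAF3, TRAF4, TRAF5, TRAF6 and TANK, taken by name, with every probe annotated to them. Of these 7 genes, 6 had annotated probes, 17 in all, and TRAF2 was not analysed here. After a filter on probes above background, 9 probes were kept and each of the 6 genes was among the 15489 features tested, of which 11422 were named genes.

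RNA from 2 human cell lines was hybridized to 12 expression arrays of 1 chip. THP-1 is a line of monocytic leukemia cells, and BEAS-2B is an immortalized line of cells from bronchial epithelium. All cells were starved of serum overnight. The 6 groups of 2 arrays each were THP-1 with poultry dust extract for 3 h, for 1 h (both at 0.1%) or with medium alone, and BEAS-2B with the extract for 3 h, for 1 h (both at 0.25%) or with medium alone. The time of the controls is not given in the labels, nor whether the 2 arrays of a group came from separate cultures, so p-values measure a spread that may be technical. The dose differed between the lines, so line and dose cannot be told apart in any comparison of their responses.

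Values are log2 intensities, normalized over the 12 arrays. A probe is said to be above background on an array where its detection p was under 0.01, and a change is said to be called, or a gene to have risen, where the limma fit gave an adjusted p under 0.05. Errors of a difference are standard errors and errors of a mean are SD, with n = 2 arrays a group. Each array had 14977 to 17045 probes above background. The 75th percentile of the raw signal was 126.2 and 127.2 on the THP-1 3 h arrays, 144.4 and 158.9 on the THP-1 1 h arrays and 157.4 to 164.3 on the THP-1 control arrays, and its part in the THP-1 results at 3 h was not tested. Of 13 annotated monocyte markers, 11 were above background on all THP-1 arrays and 2 on all BEAS-2B arrays. CD163 was above background on none of the THP-1 arrays and MPO on 1. Of 10 epithelial markers, 0 were above background on all THP-1 arrays and 10 on all BEAS-2B arrays. Lung tumour markers of the A549 line, checked because A459 stands as source name on the THP-1 samples, were above background on all arrays for 1 of 7 genes in each line. The summed normalized signal of the monocyte markers, on a linear scale, was 25950 and 26700 on the THP-1 3 h arrays against 28590 and 31290 on the THP-1 control arrays. Its part in the results was not tested. Of 11 tested monocyte markers, 5 were called there in either direction, beside 7067 of all 15489 features. The summed signal of the fibroblast markers was 341.2 and 620.1 on the BEAS-2B 3 h arrays against 651 and 660.4 on the BEAS-2B control arrays, and its part was not tested either. In bulk RNA, a change in the share of cells of a kind and a change in RNA per cell cannot be told apart.

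After 3 h of dust extract, TRAF1, TRAF3, TRAF4 and TANK rose in THP-1 cells and TRAF1, TRAF3 and TRAF4 rose in BEAS-2B cells. In BEAS-2B, TRAF1 was called on its main probe and not on its second, which was not above background there. The TRAF3 call in BEAS-2B was lost in several settings. TRAF1 had the largest difference of the 6 genes in each line at 3 h, at 5.31 ± 0.20 log2 in THP-1 and 2.62 ± 0.20 log2 in BEAS-2B. TANK was called at 3 h in THP-1 and not in BEAS-2B. The test of the TANK difference between the lines was called on its main probe and not on its second. TRAF5 and TRAF6 were called in none of the dust comparisons with control. At 1 h, TRAF4 in BEAS-2B was the single gene of the family called in either line. That call was lost without any 1 of the BEAS-2B control and 1 h arrays, among other settings. The TRAF4 rise in THP-1 at 3 h was at least 1.16-fold as a bound.

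The count of family genes that rose in THP-1 at 3 h was 4 of 6, beside 19.1% of all features, and in BEAS-2B at 3 h it was 3 of 6, beside 3.26%. Both counts include TRAF1, which was above background in dust groups alone. TRAF1 thus passed the filter only through groups in which it was high, also for the later counts. At 1 h the count was 0 of 6 in THP-1, beside 1.26%, and 1 of 6 in BEAS-2B, beside 1.1%. The family was chosen with earlier results of these data known, so these counts are no test of the family. At 1 h, 1 of the 6 genes in THP-1 and 2 in BEAS-2B had an unadjusted p under 0.05. The share of all features under that unadjusted threshold is not given here, so nothing is read from these 2 counts. No gene of the family fell in any of these 4 comparisons. The BEAS-2B count at 3 h was 2 of 6 without background correction, in the authors' value table and with median scaling. Of 15489 features, 576, 576 and 475 rose under those settings. Scaling each array on its median instead of quantile normalization moved the median of all features in THP-1 at 3 h to -0.30, from -0.05 under quantile normalization. The 4 genes that rose there were called under both scalings, at 4.99 log2 for TRAF1, 2.15 for TRAF3, 0.65 for TRAF4 and 0.84 for TANK with median scaling.

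**Figure D1:**
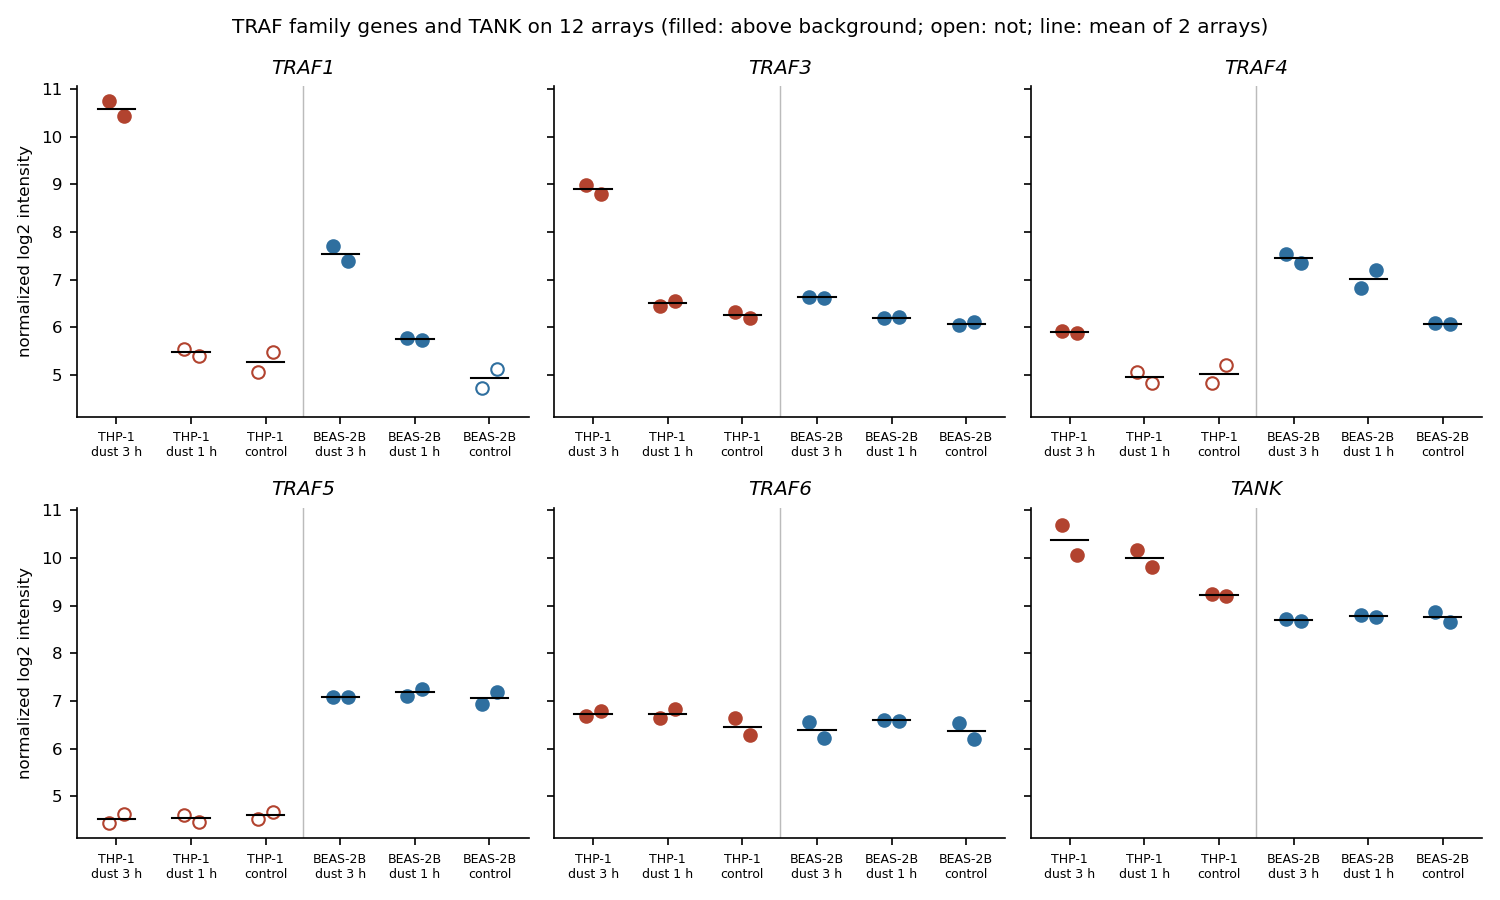
Normalized log2 intensity (y axis) of each gene's main probe on each array, in the 6 groups (x axis), with filled points above background, open points not above background and a line at the mean of 2 arrays. TRAF1 and TRAF3 stand highest in THP-1 at 3 h, TRAF4 is higher in BEAS-2B than in THP-1, TRAF5 is above background in BEAS-2B alone, and TRAF6 lies between 6.19 and 6.83 throughout.

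To show the DNA in front of the 3 family genes with the largest differences in THP-1 at 3 h, the 250 bases before the first listed start of TRAF1, TRAF3 and TANK follow, from RefSeq on GRCh38.p14, written 5′ to 3′ along the gene, with any match to the NF-kB consensus in capitals. They lie at chr9:120929172-120929421 (minus strand) for TRAF1, chr14:102777199-102777448 (plus strand) for TRAF3 and chr2:161136713-161136962 (plus strand) for TANK.
TRAF1: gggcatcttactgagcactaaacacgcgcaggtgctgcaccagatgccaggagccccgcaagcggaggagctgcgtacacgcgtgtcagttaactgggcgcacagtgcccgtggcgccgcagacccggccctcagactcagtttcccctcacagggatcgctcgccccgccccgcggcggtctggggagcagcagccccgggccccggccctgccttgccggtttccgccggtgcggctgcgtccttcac
TRAF3: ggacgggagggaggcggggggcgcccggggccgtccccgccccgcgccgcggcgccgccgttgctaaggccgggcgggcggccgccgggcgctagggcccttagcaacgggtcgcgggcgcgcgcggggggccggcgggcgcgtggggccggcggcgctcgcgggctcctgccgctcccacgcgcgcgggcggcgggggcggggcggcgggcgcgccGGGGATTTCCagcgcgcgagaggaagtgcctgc
TANK: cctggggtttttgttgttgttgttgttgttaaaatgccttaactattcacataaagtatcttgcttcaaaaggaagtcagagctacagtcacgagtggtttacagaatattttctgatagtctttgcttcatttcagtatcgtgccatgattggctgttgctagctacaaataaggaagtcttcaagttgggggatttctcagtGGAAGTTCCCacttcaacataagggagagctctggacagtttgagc

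All 7 family genes had promoter sequences, 12 windows of 250 bases in all. The NF-kB consensus was searched on both strands, as was TGACTCA, the site of AP-1 factors, and neither motif holds the other. The consensus was found in 2 of the 12 windows. The TRAF3 window held it on the plus strand, 33 to 24 bases before the start, and the first TANK window held it on the minus strand, 46 to 37 bases before the start. None of the 3 TRAF1 windows and no TRAF4 window held it, and TGACTCA was found in 0 of the 12 windows. Of 35116 such windows in the table, 9.96% held the consensus and 4.2% held TGACTCA. These matches describe letters in a window, and which starts the cells used was not measured.

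TRAF1 lacks the RING domain of its relatives, and works in complexes with TRAF2 and the ligases BIRC2 and BIRC3. It is a known target gene of NF-kB. TRAF1 stood at 10.74 and 10.42 on the THP-1 3 h arrays, 5.55 and 5.40 on the THP-1 1 h arrays and 5.07 and 5.48 on the THP-1 control arrays. Both 3 h arrays lay far above all the others of the line, and neither the 1 h nor the control arrays were above background. As raw intensities these were 1383 and 1066 at 3 h, 96.5 and 96.9 at 1 h, and 89.4 and 95.8 in control. The rise at 3 h was 5.31 ± 0.20 log2 (adjusted p = 4.61e-08), and since the control arrays give only a bound it is stated as at least 29.9-fold. Without background correction it was 4.12 log2. The 1 h difference was 0.20 log2, with a 95% interval of -0.24 to 0.65 (adjusted p = 0.792), between groups of which neither was above background. Measured against 1 h, the 3 h level was at least 31.3-fold higher (5.11 ± 0.20 log2, adjusted p = 8.8e-08).

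In BEAS-2B, TRAF1 stood at 7.70 and 7.38 on the 3 h arrays, 5.78 and 5.72 on the 1 h arrays and 4.73 and 5.13 on the control arrays. The 3 groups did not overlap, and both 1 h arrays were above background while neither control array was. The rise at 3 h was 2.62 ± 0.20 log2 (adjusted p = 6.74e-05), at least 3.73-fold, and was 1.59 log2 without background correction. Between 3 h and 1 h the level was 3.47-fold higher (1.79 ± 0.20 log2, adjusted p = 0.00135). The 1 h difference from control was 0.82 ± 0.20 log2 and was not called (adjusted p = 0.114), with a bound of at least 1.08-fold.

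The 2 TRAF1 probes did not give the same picture in BEAS-2B. The second probe, ILMN_2171789, stood at 7.77 and 7.42 on the THP-1 3 h arrays against 4.74 and 4.80 on the THP-1 control arrays, at least 3.76-fold higher (2.82 ± 0.17 log2, adjusted p = 7.65e-07). On the BEAS-2B arrays it was not above background in any group, at 5.18 and 5.30 at 3 h against 4.95 and 4.83 in control. Its BEAS-2B difference at 3 h was 0.35 ± 0.17 log2 and was not called (adjusted p = 0.287). As it was not above background there, its missing call cannot decide whether TRAF1 rose. The rise of TRAF1 in BEAS-2B thus rests on 1 of 2 probes, with no reading above background from the other.

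TRAF3 holds back the NF-kB pathway of NFKB2 and RELB by keeping the kinase MAP3K14 low, and is needed for interferon induction through TBK1. It stood at 8.99 and 8.80 on the THP-1 3 h arrays, 6.44 and 6.56 on the 1 h arrays and 6.32 and 6.20 on the control arrays. The 3 h arrays stood apart from the rest, and all arrays were above background. The rise at 3 h was 6.2-fold (2.63 ± 0.13 log2, adjusted p = 2.02e-07), rank 307 of all features from the highest difference down (2.03 log2 without background correction), and the level at 3 h was 5.25-fold that at 1 h (2.39 ± 0.13 log2, adjusted p = 6.88e-07). The 1 h difference of 0.24 ± 0.13 log2 was not called (adjusted p = 0.518), although the 1 h and control arrays did not overlap.

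In BEAS-2B, TRAF3 stood at 6.64 and 6.62 on the 3 h arrays, 6.19 and 6.21 on the 1 h arrays and 6.05 and 6.10 on the control arrays. The groups did not overlap and followed the times. The rise at 3 h was 1.46-fold (0.55 ± 0.13 log2, adjusted p = 0.034). That call was lost without background correction (adjusted p = 0.0843), in the authors' value table (0.0845), with median scaling (0.108), without the first THP-1 1 h array (0.0517) and without any 1 of the 6 BEAS-2B arrays, where the adjusted p reached 0.223 without the first control array. The 1 h difference of 0.12 ± 0.13 log2 (adjusted p = 0.998) and the 3 h against 1 h difference of 0.43 ± 0.13 log2 (adjusted p = 0.122) were not called. TRAF3 had 1 probe, so no second probe could be set beside it.

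TRAF4 is known from epithelial cells, where it is found at cell junctions and in migrating cells. It stood at 7.54 and 7.35 on the BEAS-2B 3 h arrays, 6.83 and 7.20 on the 1 h arrays and 6.08 and 6.07 on the control arrays. All dust arrays stood above both control arrays, and the 3 groups did not overlap. TRAF4 rose 2.58-fold at 3 h (1.37 ± 0.18 log2, adjusted p = 0.00163) and 1.92-fold at 1 h (0.94 ± 0.18 log2, adjusted p = 0.03). The 3 h level exceeded the 1 h level by 0.43 ± 0.18 log2, which was not called (adjusted p = 0.269). The 1 h call was lost, among other settings, with BEAS-2B fitted on its own (adjusted p = 0.0577), without the filter on dim probes (0.0616), and without any 1 of the 4 BEAS-2B control and 1 h arrays. Without the second 1 h array the difference was 0.75 log2 (adjusted p = 0.354). Between BEAS-2B dust and control, the summed normalized signal of the 10 epithelial markers also differed, at 26720 and 34160 at 3 h, 29330 and 31820 at 1 h and 22450 and 23740 in control, and its part in these results was not tested.

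In THP-1, TRAF4 stood at 5.91 and 5.87 on the 3 h arrays, 5.06 and 4.83 on the 1 h arrays and 4.84 and 5.21 on the control arrays. It was above background at 3 h alone. The rise at 3 h was 0.87 ± 0.18 log2 (adjusted p = 0.00228), which as a bound is at least 1.16-fold, and the 3 h level was at least 1.21-fold that at 1 h (0.95 ± 0.18 log2, adjusted p = 0.00171). The 1 h difference was -0.08 log2, with a 95% interval of -0.47 to 0.31 (adjusted p = 0.94).

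TANK stood at 10.69 and 10.05 on the THP-1 3 h arrays, 10.17 and 9.81 on the 1 h arrays and 9.26 and 9.21 on the control arrays. Every dust array stood above both control arrays, and the 3 h and 1 h arrays overlapped. TANK rose 2.2-fold at 3 h (1.14 ± 0.20 log2, adjusted p = 0.00106). The 1 h difference was 0.76 ± 0.20 log2, or 1.69-fold, and was not called (adjusted p = 0.119). With 1 array left out at a time, it ranged from 0.58 to 0.94 log2. Between 3 h and 1 h the difference was 0.38 ± 0.20 log2 and was not called (adjusted p = 0.171). With 1 array left out at a time, that difference ranged from 0.06 log2 to 0.69 log2, the highest without the second 3 h array.

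In BEAS-2B, TANK stood at 8.72 and 8.68 at 3 h, 8.81 and 8.76 at 1 h and 8.87 and 8.66 in control. The control arrays lay on either side of all 4 dust arrays. The 3 h difference was -0.06 log2, with a 95% interval of -0.51 to 0.39 (adjusted p = 0.908), and the 1 h difference was 0.02 log2, with an interval of -0.43 to 0.47 (adjusted p = 0.998). The second TANK probe, ILMN_2292387, stood at 7.93 and 7.67 on the THP-1 3 h arrays against 7.06 and 6.38 on the THP-1 control arrays, a rise of 1.08 ± 0.28 log2 (adjusted p = 0.00866). In BEAS-2B this probe differed by -0.04 ± 0.28 log2 at 3 h (adjusted p = 0.966), so both probes were called in THP-1 and neither in BEAS-2B.

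TRAF5, a relative of TRAF2 that binds receptors such as CD40, was not above background on any THP-1 array, where it lay between 4.44 and 4.68. In BEAS-2B it stood at 7.08 and 7.08 at 3 h, 7.11 and 7.25 at 1 h and 6.94 and 7.18 in control. The levels in BEAS-2B overlapped between dust and control at both times. The BEAS-2B difference was 0.02 log2 at 3 h, with a 95% interval of -0.30 to 0.34 (adjusted p = 0.967), and 0.12 log2 at 1 h, with an interval of -0.20 to 0.45 (adjusted p = 0.998).

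TRAF6 is the adaptor of interleukin-1 and Toll-like receptors and works with the ubiquitin enzyme UBE2N. In THP-1 it stood at 6.69 and 6.78 at 3 h, 6.65 and 6.83 at 1 h and 6.63 and 6.30 in control. In BEAS-2B it stood at 6.56 and 6.23 at 3 h, 6.60 and 6.59 at 1 h and 6.53 and 6.19 in control. TRAF6 was above background on all 12 arrays, and the groups of each line lay close together. The 3 h difference was 0.27 log2 in THP-1, with a 95% interval of -0.13 to 0.66 (adjusted p = 0.25), and 0.03 log2 in BEAS-2B, with an interval of -0.37 to 0.42 (adjusted p = 0.958). The second TRAF6 probe differed by 0.20 ± 0.16 log2 in THP-1 and 0.16 ± 0.16 log2 in BEAS-2B at 3 h, and was not called in either.

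**Figure D2:**
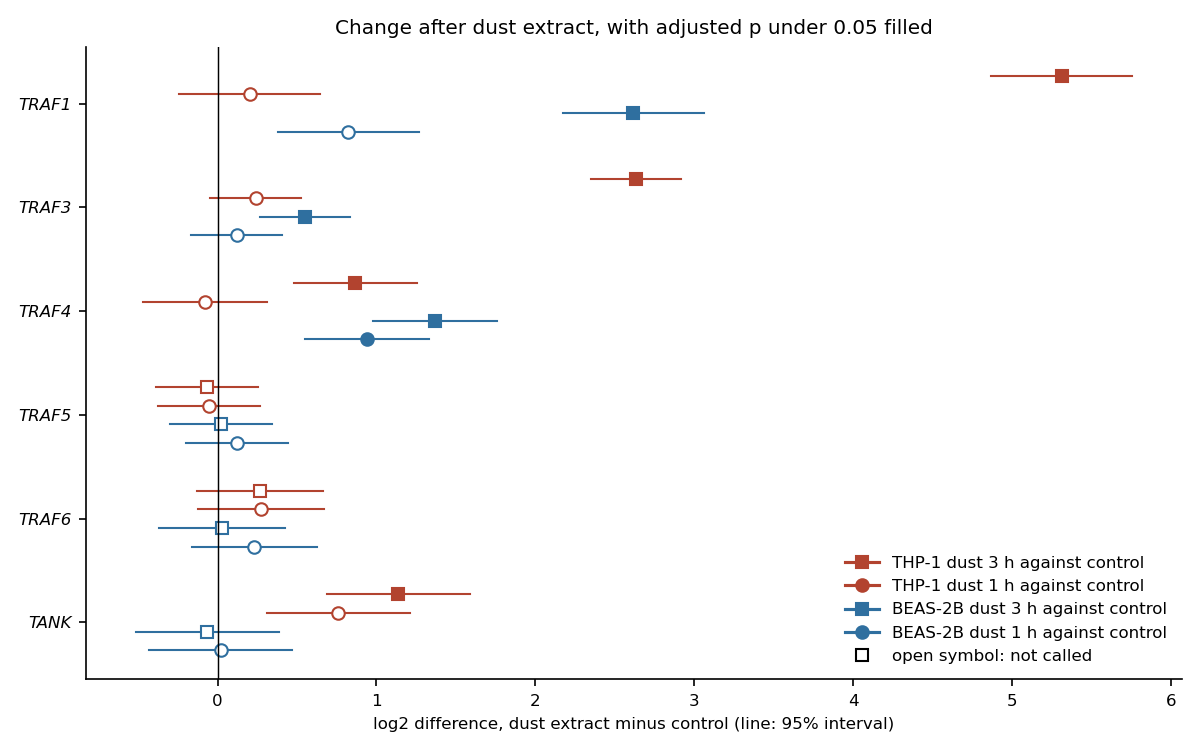
Log2 difference (x axis) between dust extract and control for the 6 genes (y axis), with THP-1 in red and BEAS-2B in blue, squares for 3 h and circles for 1 h, lines for the 95% interval and filled symbols for adjusted p under 0.05. TRAF1 in THP-1 at 3 h is farthest to the right at 5.31, and no interval of TRAF5 or TRAF6 lies clear of 0.

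When all 19045 kept probes were fitted in place of 1 probe a gene, 6 of the 9 probes of the family rose in THP-1 at 3 h, beside 19.4% of all probes, and 3 of 9 rose in BEAS-2B, beside 3.33%. For the line difference at 3 h, 4 of 9 probes were called with the larger effect in THP-1, beside 11.6%. The second TRAF1 probe is in both THP-1 counts. It was above background in THP-1 at 3 h alone, so it passed the filter only through that group. TRAF1, TRAF6 and TANK had 2 kept probes each, so these are counts of probes and not of separate genes. The 8 probes left out by the filter belonged to TRAF4 (1), TRAF5 (4), TRAF6 (1) and TANK (2). Among them, 1 TRAF5 probe was above background on 1 array, with a detection p of 0.00779, and no other was above background on any array. Where genes had several kept probes, the probe with the higher mean stood for the gene, and levels of different probes were not compared.

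**Figure D3:**
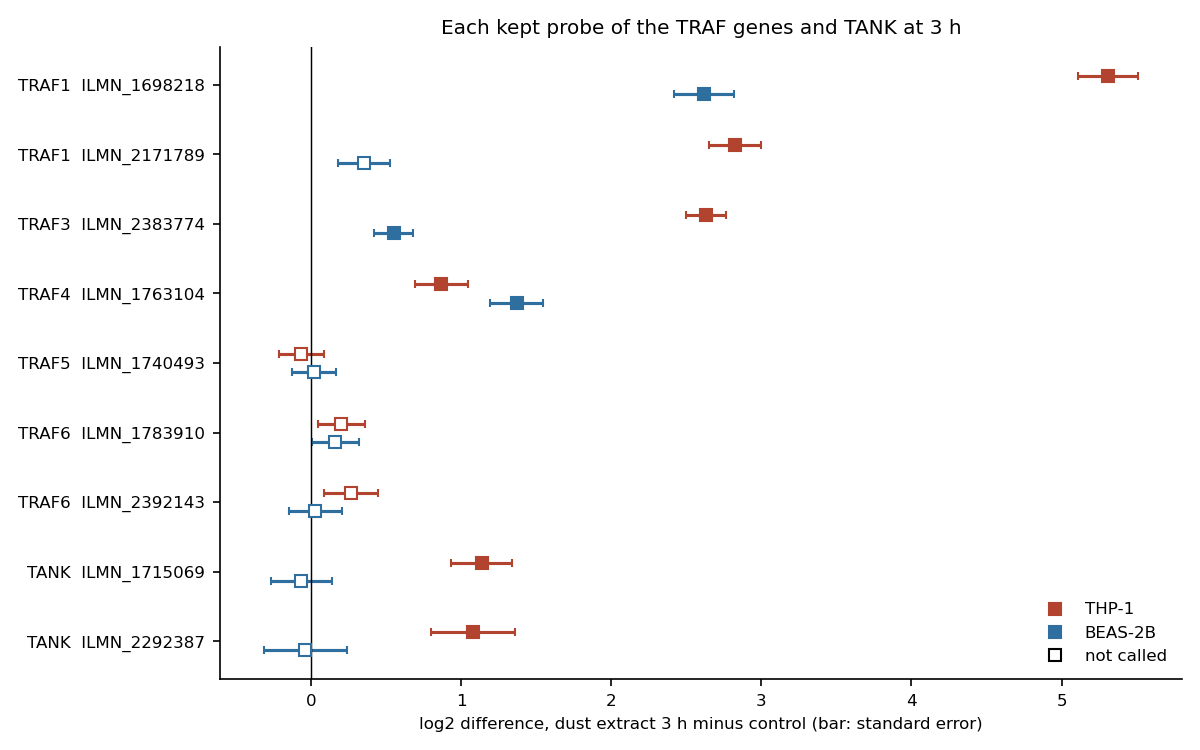
Log2 difference between dust extract at 3 h and control (x axis) for each of the 9 kept probes (y axis), with THP-1 in red, BEAS-2B in blue, bars for the standard error and filled symbols for called differences. The TRAF1 probes sit at 5.31 and 2.82 in THP-1 and at 2.62 and 0.35 in BEAS-2B, and the TANK probes at 1.14 and 1.08 in THP-1.

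The responses of the lines at 3 h differed for TRAF1, TRAF3 and TANK. In the test of the dust effect in THP-1 minus that in BEAS-2B, 3 of 6 family genes were called with the larger effect in THP-1, beside 11.7% of all features. The difference was 2.69 ± 0.28 log2 for TRAF1 (adjusted p = 0.000109), and 3.00 log2 with the control levels, which were not above background in either line, set at the lowest detected signal. For TRAF3 it was 2.08 ± 0.18 log2, or 4.23-fold (adjusted p = 3.48e-05). For TANK it was 1.20 ± 0.29 log2, or 2.3-fold (adjusted p = 0.0115), and that call was lost without the first BEAS-2B control array (adjusted p = 0.0515) and on the second TANK probe (1.12 ± 0.39 log2, adjusted p = 0.0598).

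TRAF4 went the other way in size, with a line difference at 3 h of -0.50 log2, a 95% interval of -1.05 to 0.05 and no call (adjusted p = 0.167). With the THP-1 control level, which was not above background, set at the lowest detected signal, that difference was -1.16 log2. TRAF6 differed by 0.24 log2 between the lines at 3 h, with an interval of -0.32 to 0.80 (adjusted p = 0.533). At 1 h none of the 6 genes was called in the limma test of the line difference. Of 15489 features, 47 were called with the dust effect higher in THP-1 and 41 with it lower. An unadjusted p under 0.05 was found for 2 of the 6 genes, and the share of all features under that threshold is not given here. Those were TRAF4, at -1.02 ± 0.25 log2 (adjusted p = 0.171), and TANK, at 0.74 ± 0.29 log2 (adjusted p = 0.641).

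**Figure D4:**
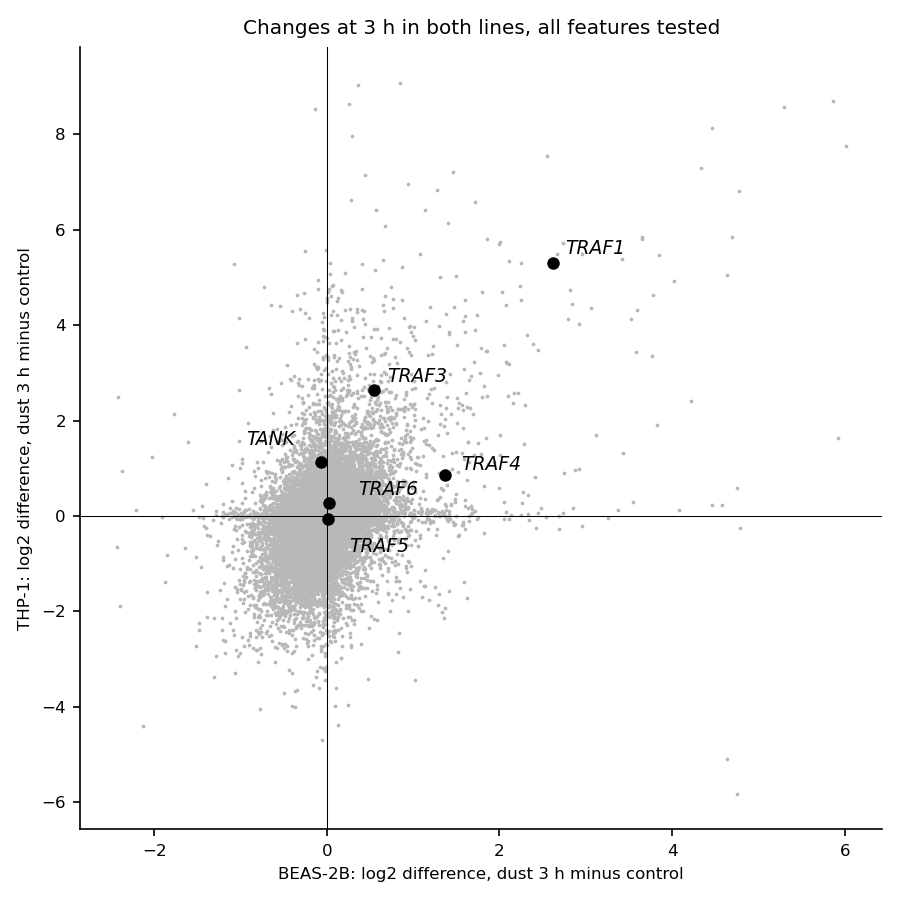
Log2 difference between dust extract at 3 h and control in THP-1 (y axis) against that in BEAS-2B (x axis), with every feature tested in grey and the 6 genes as labelled black points. TRAF1 stands at 5.31 and 2.62, TRAF3 at 2.63 and 0.55, TRAF4 at 0.87 and 1.37, TANK at 1.14 and -0.06, and TRAF5 and TRAF6 lie near the origin.

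Between 3 h and 1 h, the 2 times of each line shared no arrays, and TRAF1, TRAF3 and TRAF4 were higher at 3 h in THP-1, 3 of 6 genes beside 16.8% of features. In BEAS-2B, TRAF1 was higher at 3 h, 1 of 6 genes beside 1.41% of features. The second TRAF1 probe was not called there (0.20 ± 0.17 log2, adjusted p = 0.651). It was not above background at either time, so it cannot decide. The comparisons of 3 h and of 1 h with control share the control arrays of their line.

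Without dust, TRAF5 and TRAF4 were lower in THP-1 than in BEAS-2B. The THP-1 controls were lower for 2 of 6 family genes, beside 32.2% of all features. For TRAF5 the difference was -2.46 ± 0.15 log2 (adjusted p = 1.27e-07), and as the THP-1 arrays give only a bound the BEAS-2B level was at least 2.6-fold higher (-1.46 log2 without background correction). The TRAF5 difference rests on 1 of 5 annotated probes, as the filter left out the other 4. For TRAF4 it was -1.05 ± 0.18 log2 (adjusted p = 0.000383), with BEAS-2B at least 1.31-fold higher. TANK was 0.47 ± 0.20 log2 higher in THP-1 controls, which was not called (adjusted p = 0.0665) and was called, among other settings, without either THP-1 3 h array (adjusted p = 0.0216 and 0.0214). TRAF1, TRAF3 and TRAF6 were not called between the controls, and for TRAF1 neither control was above background.

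The order of the 6 group means differed from gene to gene. TRAF1 was highest in THP-1 at 3 h (10.58 ± 0.23), followed by BEAS-2B at 3 h (7.54 ± 0.23) and BEAS-2B at 1 h (5.75 ± 0.04), and the other three groups were not above background and overlapped in turn. TRAF3 ran from THP-1 at 3 h (8.89 ± 0.14) through BEAS-2B at 3 h (6.63 ± 0.01) to BEAS-2B control (6.08 ± 0.03), with THP-1 control and BEAS-2B at 1 h overlapping. For TRAF4 the 3 BEAS-2B groups came first, at 7.44 ± 0.13 at 3 h, 7.02 ± 0.26 at 1 h and 6.07 ± 0.01 in control, and THP-1 at 3 h came next at 5.89 ± 0.03. TANK had its 3 THP-1 groups first, at 10.37 ± 0.45 at 3 h, 9.99 ± 0.26 at 1 h and 9.23 ± 0.03 in control, and the 3 BEAS-2B groups, with means from 8.70 to 8.78, each overlapped the next. For TRAF6 the means ran from 6.36 to 6.74, and most neighbours in the order overlapped.

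The genes that work around TRAF proteins were taken in 7 lists of 74 genes, of which 60 were tested. The lists were chosen with earlier results of these data known, so their counts are no test of the lists. Some listed genes passed the filter only through groups in which they were high. In THP-1 at 3 h, 33 of the 60 genes rose and 11 of them fell, beside 19.1% of all features that rose and 26.5% that fell. In BEAS-2B at 3 h, 15 of the 60 rose and 0 fell, beside 3.26% that rose and 2.21% that fell. At 1 h, 10 of 60 rose in THP-1, beside 1.26% of all features, and 6 of 60 in BEAS-2B, beside 1.1%, and 0 fell in either. The median difference over the 60 genes was 0.70 log2 in THP-1 at 3 h, where that of all features was -0.05, and 0.13 log2 in BEAS-2B at 3 h, where that of all features was -0.04.

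Among the TNF superfamily receptors that bind TRAF proteins, 6 of 9 tested rose in THP-1 at 3 h while 2 fell, beside 19.1% and 26.5% of all features. In BEAS-2B, 2 of the 9 receptors rose, beside 3.26%. Their median in THP-1 at 3 h was 2.66 log2, or 2.26 with dim levels at their bound. CD40, the receptor of CD40 ligand, rose 10.5-fold in THP-1 (adjusted p = 5.86e-07) and 2.33-fold in BEAS-2B (adjusted p = 0.00553). TNFRSF18, a receptor known from T cells, rose at least 7.15-fold in THP-1. TNFRSF9, also called 4-1BB, rose at least 9.79-fold in THP-1 (adjusted p = 1.18e-06) and at least 1.58-fold in BEAS-2B (adjusted p = 0.0405). TNFRSF4 and TNFRSF18 were above background in THP-1 at 3 h alone, so they passed the filter only through that group. TNFRSF9 passed it only through the 3 h dust groups. The counts of receptors that rose include these genes.

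Among adaptors and kinases upstream of TRAF proteins, 4 of 8 rose in THP-1 at 3 h while 1 fell (median 0.65 log2), and 2 of 8 rose in BEAS-2B (median 0.11 log2). IRAK2, a kinase of the interleukin-1 and Toll-like receptor complex that engages TRAF6, rose 41.5-fold in THP-1 (adjusted p = 1.17e-06) and 10.7-fold in BEAS-2B (adjusted p = 0.000403). TICAM1, the adaptor of TLR3 and TLR4 that engages TRAF3 and TRAF6, rose 6.28-fold in THP-1 and 1.99-fold in BEAS-2B (adjusted p = 0.0146). Among ubiquitin enzymes, 3 of 7 rose and 1 fell in THP-1 (median 0.30 log2), and 1 of 7 rose in BEAS-2B (median 0.16 log2). BIRC2, the ligase recruited by TRAF1 and TRAF2, rose 1.65-fold in THP-1 (adjusted p = 0.00337) and 1.77-fold in BEAS-2B (adjusted p = 0.0132), and the ligase PELI1 rose 4.52-fold in THP-1.

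Of the kinases downstream of TRAF proteins, 6 of 11 rose in THP-1 at 3 h while 2 fell (median 0.47 log2), and 1 of 11 rose in BEAS-2B (median -0.02 log2). MAP3K1, a kinase of the JNK pathway, fell by 1.65 on the log2 scale in THP-1 (adjusted p = 1.21e-05), and TAB1, a partner of the kinase TAK1, fell by 1.44 (adjusted p = 0.000164). IKBKE, the TANK partner, rose 2.48-fold in THP-1 (adjusted p = 0.00118) and 2.96-fold in BEAS-2B (adjusted p = 0.00429). Of the deubiquitinases and inhibitors, 6 of 11 rose and 3 fell in THP-1 (median 0.44 log2), and 3 of 11 rose in BEAS-2B (median 0.07 log2). The count of 3 that fell lies near the share of all features. ZC3H12A, an RNase that also restrains TRAF ubiquitination, rose 28.3-fold in THP-1 and 4.73-fold in BEAS-2B. TNIP1, a partner of A20, rose 9.36-fold in THP-1 and 4.22-fold in BEAS-2B, and TNFAIP3, which encodes A20, rose 17.6-fold in THP-1 (adjusted p = 5.79e-05) and 11.5-fold in BEAS-2B (adjusted p = 0.0022).

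Among TANK relatives and other genes named for TRAF, 1 of 6 rose in THP-1 at 3 h while 2 fell (median -0.33 log2, or -0.12 with dim levels at their bound), and 0 of 6 changed in BEAS-2B. The THP-1 counts lie near the shares of all features, 19.1% that rose and 26.5% that fell, so nothing is read from them. OPTN, a ubiquitin-binding protein and TBK1 partner, rose 3.45-fold in THP-1 (adjusted p = 3.84e-06), and TRAF3IP3, named for its binding to TRAF3, fell by 2.43 on the log2 scale (adjusted p = 5.28e-07). Of the NF-kB subunits and inhibitors, 7 of 8 rose in THP-1 at 3 h (median 3.49 log2) and 6 of 8 in BEAS-2B (median 1.82 log2), and 4 of 8 and 3 of 8 rose at 1 h. Beside these, 19.1% and 3.26% of all features rose at 3 h, and 1.26% and 1.1% at 1 h. NFKB2, the subunit whose processing TRAF3 restrains, rose 25.9-fold in THP-1 (adjusted p = 1.04e-07) and 4.07-fold in BEAS-2B (adjusted p = 0.000396). The inhibitor NFKBIE rose 11-fold in THP-1 and 3.6-fold in BEAS-2B.

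**Figure D5:**
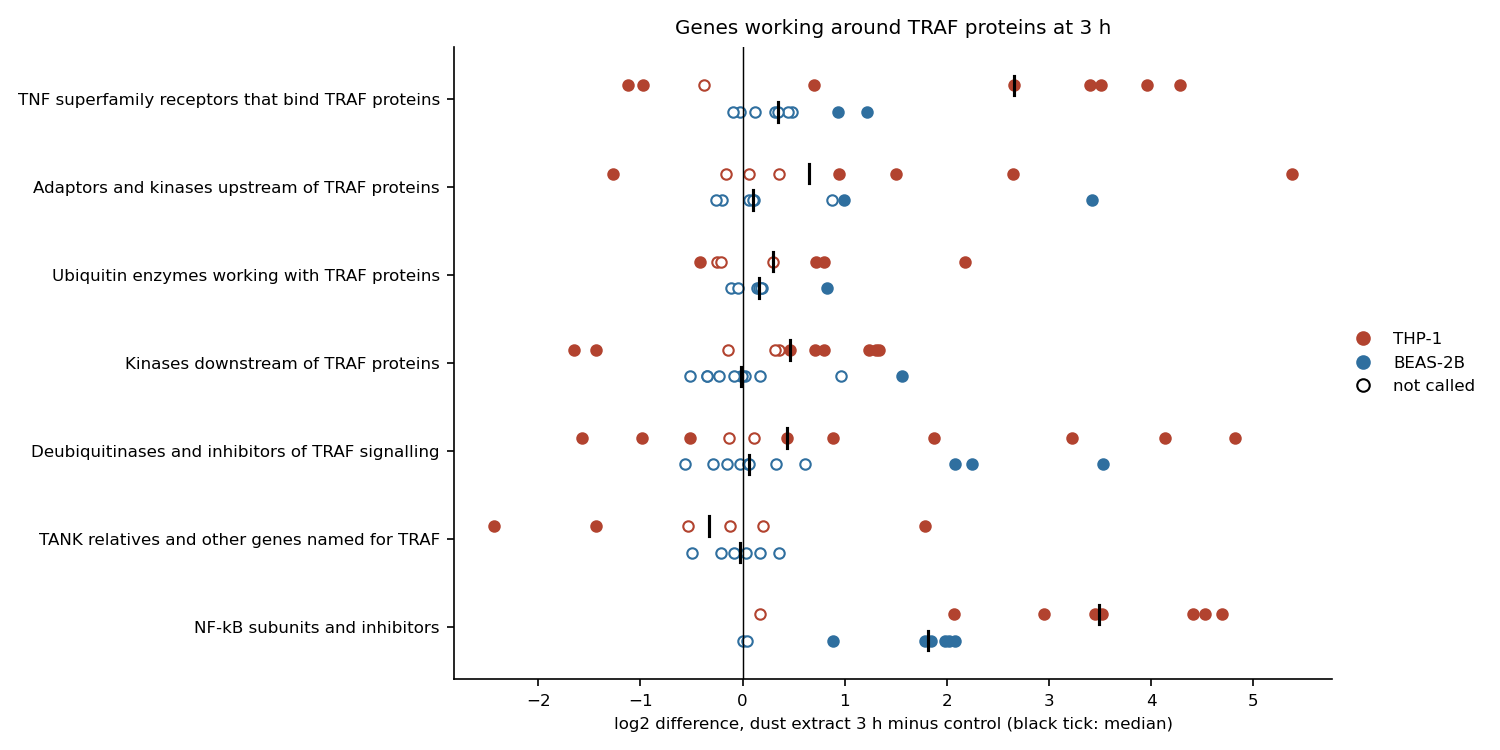
Log2 difference between dust extract at 3 h and control (x axis) for the tested genes of 7 lists (y axis), with THP-1 in red, BEAS-2B in blue, filled points for called genes and a black tick at the median. The NF-kB subunits and inhibitors have medians of 3.49 in THP-1 and 1.82 in BEAS-2B, and the kinases and the TANK relatives have called genes on both sides of 0 in THP-1.

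The named genes most like each family gene that rose were found by the root mean square difference of log2 intensity over the 12 arrays, after centring each gene on its mean in each line. For TRAF1 these were SERPINE2 (0.35 log2), HAS3 (0.50) and NPTX1 (0.50), where TRAF1 itself had a root mean square of 1.91 about its line means. For TRAF3, with 0.86 of its own, they were BCL2L1 (0.12), GSAP (0.14) and KCNK5 (0.15). For TRAF4, with 0.52 of its own, they were CDC42EP2 (0.20), IFRD1 (0.22) and BIRC2 (0.23). For TANK, with 0.37 of its own, they were PIGW (0.14), NKIRAS1 (0.14) and BAG3 (0.15). In THP-1 at 3 h, BCL2L1 differed from control by 2.60 log2 and PIGW by 1.20 log2, and in BEAS-2B by 0.62 and -0.07 log2. Both were picked for likeness on the same arrays, so like changes follow from the choice. The arrays share their groups and their chip, so these measures describe likeness over 6 pairs of arrays.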

How the data were processed

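Groups came from the title and cell line labels of the 12 arrays. Per the file headers, the raw table deposited by the authors gives for 47320 probes the signal and its bead standard error as linear intensity, the count of beads, and a p-value of detection. Per the submitters' processing notes, GenomeStudio 2011.1 was used. Bead counts had a median of 21 a probe, with a bead standard error of 5.51% to 5.89%, and the number of arrays limits the precision. The authors' value table holds normalized intensity on a linear scale and was used as an alternative.

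Background was corrected by nec from the detection p-values (offset 16) and the arrays were quantile-normalized, giving log2 intensities, in limma 3.58.1 (R 4.3.3). Probes under a detection p of 0.01 on both arrays of at least 1 group were kept (19045). The kept probe with the highest mean stood for its gene. The platform's annotation named 1 gene for 30112 probes, several for 8 and none for 17200. A fit of 6 group means (lmFit, eBayes; 6 residual and 4.3 prior degrees of freedom) gave 9 comparisons, with Benjamini-Hochberg adjustment over 15489 features in each, and was tested on simulated data. Where a group was not above background, "at least" sets it at the higher, per array, of its own value and the lowest signal among probes above background. Promoters came from RefSeq (GRCh38.p14).

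The family and the lists were chosen with earlier results of these data known. By rule, up to 2 called genes of each list with the smallest p in each line at 3 h were named, and for each called family gene the 3 most alike. Each array was left out in turn. Further alternatives were a replicate block, the mean of a gene's probes, every kept probe, detection required on all 12 arrays or no filter, the authors' values, a separate fit of each line, scaling on the median, and uncorrected background.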

Additional observations from a re-analysis of the deposited data

Results flagged for a closer look

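Several results stood out because the change differed between times or between lines by a test of that difference. TRAF1 was higher at 3 h than at 1 h by 5.11 log2 in THP-1, or at least 31.3-fold since the 1 h level was not above background. In BEAS-2B it was higher at 3 h than at 1 h by 1.79 log2 on its first probe. The second probe differed by 0.20 log2, not called, and was not above background in BEAS-2B. The 3 h rise of TRAF1 was 2.69 log2 larger in THP-1 than in BEAS-2B. TRAF3 was higher at 3 h than at 1 h by 2.39 log2 in THP-1, and its 3 h rise was 2.08 log2 larger in THP-1 than in BEAS-2B. TRAF4 was higher at 3 h than at 1 h by 0.95 log2 in THP-1, where the 1 h level was not above background and the bound is at least 1.21-fold. For TANK, the 3 h difference from control was 1.20 log2 larger in THP-1 than in BEAS-2B on its main probe, and 1.12 log2 larger, not called, on its second.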

How the results depend on the processing

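For the 6 genes in 9 comparisons, 54 results were recomputed under the alternatives, 1113 values in all. Of these, 1085 kept the direction and the side of the threshold of a called result, or stayed uncalled, 21 lost the call and 7 gained it, and no called result changed sign. The lost calls were those of TRAF4 in BEAS-2B at 1 h, TRAF3 in BEAS-2B at 3 h, the second TRAF1 probe in BEAS-2B and the TANK line difference at 3 h. That TRAF1 probe was not above background in BEAS-2B, so its loss cannot decide against the main probe. The gained calls were all of TANK: in THP-1 at 1 h, at 3 h against 1 h, including 0.56 log2 with the mean of its probes (adjusted p = 0.0466), and between controls.

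With detection required on all 12 arrays, TRAF1, TRAF4 and TRAF5 dropped out, so that 3 genes were tested. The number of family genes called was then 2 in THP-1 at 3 h, 1 in BEAS-2B at 3 h, 0 in BEAS-2B at 1 h, 1 and 0 at 3 h against 1 h in THP-1 and BEAS-2B, and 0 between controls. For BEAS-2B at 1 h the count was also 0, in place of 1, with each line on its own, without the filter and with the replicate block. For BEAS-2B at 3 h it was 2, in place of 3, without background correction, with median scaling and in the authors' value table. Leaving out 1 array at a time moved the family count at 1 h in both lines and at 3 h in BEAS-2B. It also moved the count for THP-1 at 3 h against 1 h, for the line difference at 3 h and between controls. The count for THP-1 at 3 h against control did not move. In THP-1 on its own, 5 genes were tested.

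The replicate numbers are shared labels. The deviations of same-numbered arrays correlated at 0.238 to 0.341 in THP-1 and at -0.104 to 0.203 in BEAS-2B. The replicate block ended the call of TRAF4 in BEAS-2B at 1 h (0.94 log2, adjusted p = 0.061), gained that of TANK between controls (0.47 log2, adjusted p = 0.0286) and changed no other family call. It moved the features called in THP-1 at 1 h to 321, from 255 without it.

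Counts over all features moved by over 1.5 times in several settings. With detection on all 12 arrays, 9408 features were tested in place of 15489, so the counts under that setting are out of a smaller set. With detection on all 12 arrays, 4618 features were called in THP-1 at 3 h (7067 in the main setting), 139 in THP-1 at 1 h (255), 458 in BEAS-2B at 3 h (847), 69 in BEAS-2B at 1 h (183), 4055 in THP-1 at 3 h against 1 h (6116), 176 in BEAS-2B at 3 h against 1 h (422), 2451 for the line difference at 3 h (4114), 26 for that at 1 h (88) and 5812 between controls (9649). With each line on its own, 163 of 13677 features tested were called in THP-1 at 1 h and 113 of 13442 in BEAS-2B at 1 h. Leaving out 1 array gave 151 to 315 in THP-1 at 1 h, 69 to 278 in BEAS-2B at 1 h, 217 to 939 in BEAS-2B at 3 h and 80 to 451 in BEAS-2B at 3 h against 1 h, with the lowest counts without the first THP-1 1 h array, the first BEAS-2B control array, the same control array and the first BEAS-2B 1 h array. The line difference at 1 h ranged from 30 to 143 and was lowest without the second BEAS-2B control array. With median scaling, 1650 features rose in THP-1 at 3 h while 6046 fell (2966 and 4101 in the main setting), 475 rose in BEAS-2B at 3 h while 618 fell (505 and 342), and 1481 were higher and 4863 lower in THP-1 at 3 h against 1 h (2609 and 3507). For the line difference at 3 h the split was 1180 higher and 3447 lower (1815 and 2299).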
